A study of Xenopus laevis with 6 samples.

Results

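Transcripts of the thyroid hormone receptors, the retinoid X receptors and the genes that set hormone supply and repression beside them were examined in the optic tectum, the part of the tadpole midbrain that receives input from the eye, of Xenopus laevis at stage 46. The genes were thra, thrb, rxra, rxrb, rxrg, klf9, dio2, dio3 and ncor1, and every annotated copy whose symbol matched once the copy suffix was removed was kept, which gave 18 copies of 9 genes among 45099 annotated genes. The X. laevis genome arose from a hybrid of related species, so most genes have a copy on the longer (.L) and on the shorter (.S) chromosome of a pair. Each of the 9 genes had 1 L and 1 S copy.

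Of the 6 RNA libraries, 3 came from immature neuron-enriched tectum of tadpoles exposed to visual stimulation (IN) and 3 from neural progenitor-enriched tectum of dark-exposed tadpoles (NPC), each numbered 1 to 3. No strain, genotype or drug is given in the labels, and the means of enrichment was not stated in the sources used here. All IN libraries were visually stimulated and all NPC libraries dark, so cell population and visual condition cannot be told apart. Nothing in the labels ties a library to its own animals or pool. Each library held between 8422751 and 9914191 counted reads in the mRNA table, the table used unless another is named.

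Thyroid hormone receptors are nuclear receptors that bind DNA mostly as heterodimers with a retinoid X receptor. Without hormone they recruit corepressors such as NCOR1, and with hormone they exchange them for coactivators. Type 2 deiodinase converts the prohormone thyroxine to the active hormone T3, and type 3 deiodinase inactivates both. In frogs this system drives metamorphosis, and in premetamorphic tadpoles the unliganded receptor alpha is known to hold hormone-responsive genes down; klf9 and thrb are classic direct targets that T3 induces.

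The transcripts of this system were uneven. ncor1 and dio2.L had reads in every library and the lowest share of them in any single library, thra and rxrb had reads in every library but varied widely, and thrb, dio3 and klf9 lacked reads in at least 1 library. Of the 18 copies, 10 had reads in all 6 libraries, dio3.S had no read in any, and 11 had enough reads in enough libraries to be tested. None of the 11 passed the quasi-likelihood test of edgeR, adjusted by Benjamini-Hochberg over the 19158 genes tested (threshold 0.05, adjusted p 1 for each), where 0% of all genes passed. At an unadjusted p under 0.05 stood 1 of the 11, rxrb.S, against 3.43% of all genes (1.93% lower and 1.51% higher in IN). DESeq2 called rxrb.S too (adjusted p 0.0394), where it called 0.459% of all genes (0.23% lower in IN), and limma-voom called 0 of the 11 and 0% of all genes. The groups did not overlap in CPM, the read count relative to the TMM-scaled total of the library, in 2 of the 11, both copies of rxrb and both lower in IN, against 8.76% of all genes (4.06% lower and 4.7% higher in IN). The log2 fold changes, IN minus NPC, were above 0 in 3 copies and below 0 in 8, with a median of -0.75 against -0.03 over all genes tested. Over all genes tested 9379 were above 0 and 9779 below. Of the 8, thra.L (-0.01) and rxra.L (-0.03) were near 0. With limma-voom, and with the replicate number as a block, thra.L, rxra.L, rxra.S and rxrg.S turned above 0. Only the copies tested enter these counts.

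**Figure D1:**
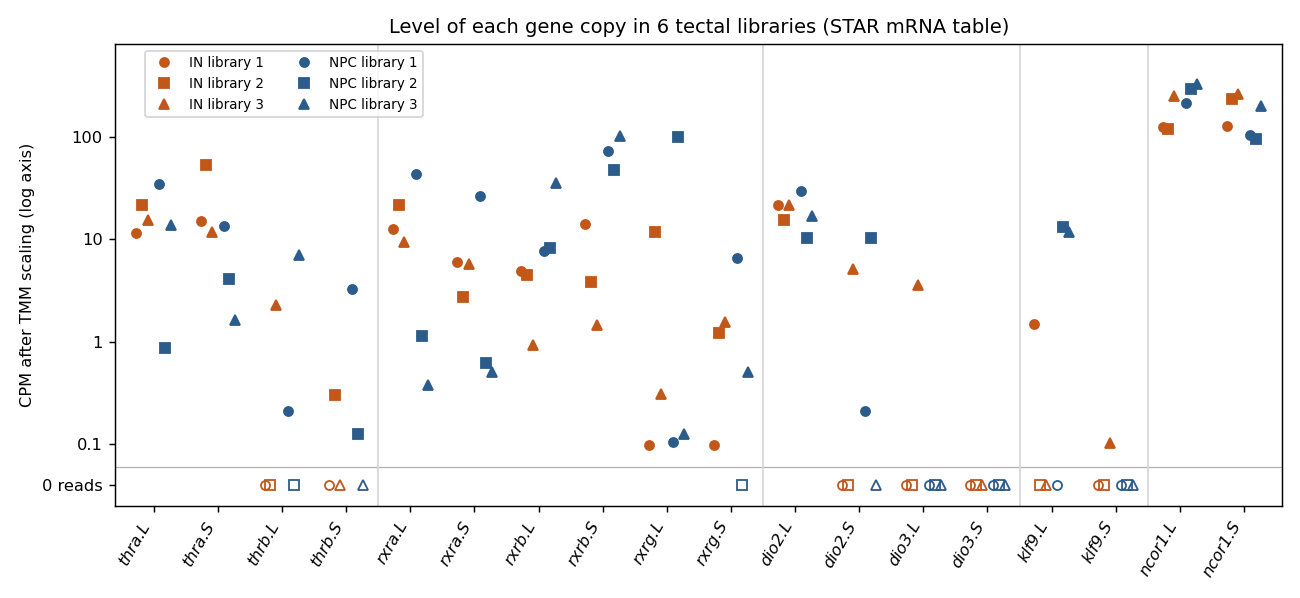
Level of each of the 18 gene copies in CPM after TMM scaling (log axis) in the 3 IN libraries (left, orange) and 3 NPC libraries (right, blue), with libraries without a read drawn as open symbols on the bottom line. The ncor1 copies lie near 100 CPM and above in every library, both rxrb copies are lower in all IN than in all NPC libraries, and thrb, dio2.S, dio3 and klf9 have libraries with 0 reads.

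Both copies of receptor alpha, but neither copy of receptor beta, had reads in all 6 libraries. In coding sequence the totals over the 6 libraries were closer, 79 reads for thra.L and 47 for thra.S, against 48 for thrb.L and 33 for thrb.S. Coding reads of thra.L were found in all 6 libraries, while thra.S had none in NPC libraries 2 and 3. thra.L (build 9.1, 9_10L, 1830384 to 1914631, minus strand) had 117, 212 and 149 reads in IN libraries 1, 2 and 3, against 324, 7 and 108 reads in NPC libraries 1, 2 and 3. Its groups overlapped, because NPC library 1 was the highest and NPC library 2 the lowest of the 6. In CPM it was at 16.1 ± 5.02 in IN and 16.3 ± 16.9 in NPC (SD, n = 3 each), a log2 fold change of -0.01 (SE 1.47), with a 95% interval from -3.07 to 3.04 that leaves room for a large difference in either direction. thra.S (9_10S, 1563057 to 1646855, minus strand) had 153, 524 and 115 reads in IN, against 128, 33 and 13 reads in NPC. It was highest in IN library 2 and lowest in NPC library 3, and the groups overlapped because NPC library 1, at 13.6 CPM, lay above IN library 3, at 11.8 CPM. Its mean was 26.7 ± 23.0 CPM in IN and 6.44 ± 6.29 CPM in NPC, with a log2 fold change of 2.05 (SE 1.48, unadjusted p 0.182, adjusted p 1, edgeR). Of these reads, 1, 8 and 7 lay in coding sequence in IN, against 31, 0 and 0 in NPC. The other 152, 516 and 108 reads in IN did not overlap the 97, 33 and 13 in NPC. Coding reads alone were highest in NPC library 1, so the direction for thra.S came from reads outside coding sequence. Over those reads the log2 fold change was 2.43 (unadjusted p 0.0976, adjusted p 1, edgeR), a split made after the data were seen. The share of all genes without overlap in such reads was not counted. Annotated genes inside the spans of thra.S and thrb.L had no read. The treatment of reads shared by overlapping genes was not stated, so this does not show whether such genes added reads. Fewer cells of a type and less RNA per cell cannot be told apart in such bulk libraries.

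Receptor beta, itself induced by the hormone, had few reads, and each copy had them in 3 of the 6 libraries. thrb.L (6L, 44556226 to 44732441, minus strand) had 0, 0 and 22 reads in IN, against 2, 0 and 55 reads in NPC. thrb.S (6S, 38263228 to 38276963, minus strand) had 0, 3 and 0 reads in IN, against 31, 1 and 0 reads in NPC. Library 3 of each group held nearly all thrb.L reads, and NPC library 1 most thrb.S reads. Neither copy had enough reads to be tested, and a library without a read allows up to 3 reads, or 0.296 to 0.380 CPM depending on the library, by counting error alone. Summed over copies, thrb was at 0.857 ± 1.23 CPM in IN and 3.53 ± 3.42 CPM in NPC (log2 fold change -2.03, SE 2.17, adjusted p 1, edgeR on summed copies).

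Retinoid X receptor beta had the largest fold change among the receptor copies tested. rxrb.S (8S, 78275029 to 78293853, plus strand) had 141, 38 and 14 reads in IN, against 680, 379 and 806 reads in NPC. Every NPC library was above every IN library. Its mean was 6.41 ± 6.62 CPM in IN and 73.8 ± 27.3 CPM in NPC, an IN to NPC ratio of 0.0868. Its log2 fold change of -3.52 (SE 1.11, 95% interval -5.84 to -1.21, unadjusted p 0.00472, adjusted p 1, edgeR) did not pass over all genes, and the adjusted p ran from 0.0394 (DESeq2) to 1 across the alternatives. rxrb.L (8L, 50887807 to 50903520, plus strand) had 50, 44 and 9 reads in IN, against 72, 66 and 277 reads in NPC. NPC library 3, at 35.0 CPM, was the highest and IN library 3, at 0.927 CPM, the lowest, with the other libraries between 4.46 and 8.25 CPM. The log2 fold change of rxrb.L was -2.30 (SE 1.72, unadjusted p 0.196, adjusted p 1, edgeR). With reads of both copies summed before the fit, rxrb was at 9.85 ± 8.35 CPM in IN and 90.8 ± 41.8 CPM in NPC, with a log2 fold change of -3.19 (SE 0.97, unadjusted p 0.00349, adjusted p 1, edgeR).

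The first 577 bases of rxrb.S overlap MGC147402.S, a gene annotated on the opposite strand, and the use of strand in counting was not stated in the sources used here. MGC147402.S had 119, 261 and 406 reads in IN, against 206, 123 and 83 reads in NPC, an order of the libraries unlike that of rxrb.S. Its part in the reads of rxrb.S was not tested.

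The reads of rxrb.S that separated the groups lay outside its coding sequence. In the STAR coding-sequence table rxrb.S had 50, 9 and 11 reads in IN, against 88, 0 and 339 reads in NPC. These coding reads overlapped between groups, since NPC library 2 had none and NPC library 3 had most. The rest of the annotated gene held 91, 29 and 3 reads in IN, against 592, 379 and 467 reads in NPC, which again did not overlap. This split was made after the data were seen. The share of all genes without overlap in such reads was not counted, so how unusual this is cannot be said. Over coding reads alone the log2 fold change was -2.56 (unadjusted p 0.234, adjusted p 1, edgeR), and over the other reads it was -4.02 (unadjusted p 0.00348, adjusted p 1, edgeR). For rxrb.L, the coding reads were 14, 0 and 0 in IN, against 28, 1 and 0 in NPC, which overlapped, while the reads outside it, 36, 44 and 9 in IN, against 44, 65 and 277 in NPC, did not in CPM. TopHat2 gave 10, 0 and 0 coding reads for rxrb.L in IN, against 25, 1 and 17 in NPC, with a log2 fold change of -2.10 (adjusted p 0.999, edgeR), lower in IN as in the mRNA table.

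**Figure D2:**
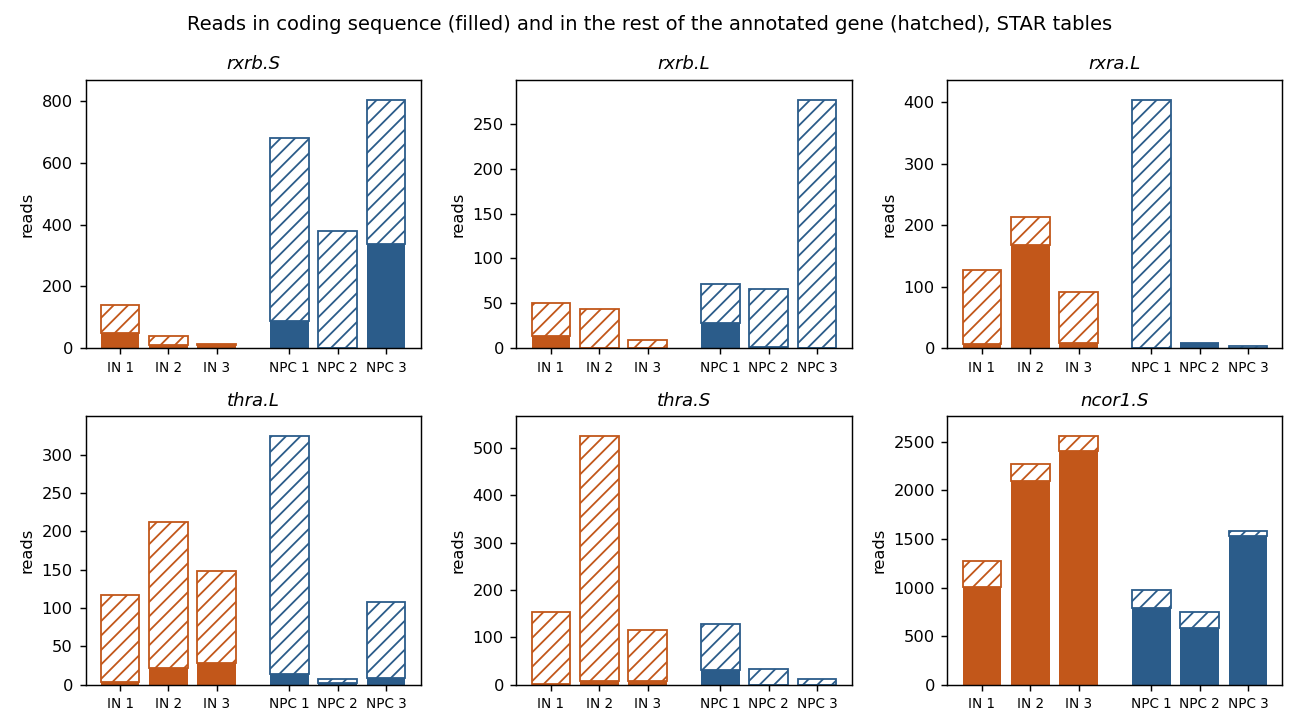
Reads per library in coding sequence (filled) and in the rest of the annotated gene (hatched) for 5 receptor copies and ncor1.S, IN libraries left (orange) and NPC libraries right (blue). For rxrb.S the hatched part separates the groups and the filled part does not, while ncor1.S reads are mostly coding in all 6 libraries.

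Retinoid X receptor alpha was highest in 1 NPC library and lowest in the other 2. rxra.L (8L, 5260959 to 5375625, minus strand) had 127, 213 and 91 reads in IN, against 404, 9 and 3 reads in NPC. rxra.S (8S, 30053597 to 30140971, minus strand) had 60, 27 and 55 reads in IN, against 246, 5 and 4 reads in NPC. Both copies were thus high in NPC library 1, intermediate in all IN libraries and nearly absent in NPC libraries 2 and 3. The log2 fold changes were -0.03 (SE 1.63) for rxra.L and -0.92 (SE 1.93) for rxra.S, and without NPC library 1 they were 4.23 and 3.03 (adjusted p 0.786 and 0.918, edgeR). The near-zero value of rxra.L also changed sign without IN library 1 (0.070) and without IN library 3 (0.22), so no direction can be given for it. Of the 404 rxra.L reads in NPC library 1, 0 were coding, whereas in IN library 2 coding sequence held 168 of 213.

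Retinoid X receptor gamma was spread even less evenly. rxrg.L (4L, 111336512 to 111409288, plus strand) had 1, 116 and 3 reads in IN, against 1, 786 and 1 reads in NPC. Library 2 of each group held almost all of them, and of the 908 reads 1 was coding. rxrg.S (4S, 91714742 to 91780121, plus strand) had 1, 12 and 15 reads in IN, against 62, 0 and 4 reads in NPC. It overlapped between groups (log2 fold change -1.30, SE 2.15, adjusted p 1, edgeR), while rxrg.L did not have enough reads in enough libraries to be tested.

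Among the deiodinases, dio2, the activating enzyme, had reads of its L copy in all libraries. dio2.L (8L, 61118308 to 61133733, minus strand) had 220, 152 and 211 reads in IN, against 276, 83 and 133 reads in NPC. In CPM this was 19.6 ± 3.64 in IN and 18.8 ± 9.58 in NPC, and the groups overlapped. The log2 fold change was 0.06 (SE 1.28, adjusted p 1, edgeR), and its 95% interval, -2.60 to 2.72, does not show that the groups were equal. dio2.S (8S, 24902364 to 24913303, plus strand) had 0, 0 and 50 reads in IN, against 2, 83 and 0 reads in NPC. Only coding sequence is annotated for both dio2 copies, so reads counted outside it would lie in introns if whole spans were counted. Such reads were all 50 of the dio2.S reads in IN, and 117 of the 152 dio2.L reads in IN library 2.

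dio3, the inactivating enzyme, was hardly detected. dio3.L (8L, 73691344 to 73692927, plus strand) had 0, 0 and 35 reads in IN, against 0, 0 and 0 reads in NPC. dio3.S (8S, 11831731 to 11832534, minus strand) had 0 reads in all 6 libraries. All dio3 reads thus came from IN library 3, and 23 of the 35 were coding.

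Transcripts of klf9, a zinc finger transcription factor that T3 induces directly, were found in 3 libraries for the L copy and 1 for the S copy. klf9.L (1L, 128161393 to 128178484, minus strand) had 15, 0 and 0 reads in IN, against 0, 106 and 92 reads in NPC. The groups overlapped because NPC library 1 had no read while IN library 1 had some. A log2 fold change of -4.03 for klf9.L (SE 2.53, unadjusted p 0.126, adjusted p 1, edgeR) did not pass. With STAR all 213 klf9.L reads lay outside its coding sequence, which is 879 of its 9724 annotated exon bases, 8479 of them in the 3′ untranslated region. klf9.S (1S, 105222485 to 105223138, minus strand), annotated as coding sequence only, had 1 read in IN library 3 and none elsewhere.

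ncor1, the corepressor, was spread more evenly over the libraries than the receptor copies. ncor1.L (2L, 29793053 to 29894146, plus strand) had 1268, 1166 and 2423 reads in IN, against 2018, 2323 and 2553 reads in NPC. ncor1.S (2S, 6629114 to 6748814, minus strand) had 1274, 2273 and 2554 reads in IN, against 973, 751 and 1579 reads in NPC. The L copy thus tended lower and the S copy higher in IN, each with groups that overlapped. ncor1.L was at 164 ± 73.8 CPM in IN and 276 ± 56.1 CPM in NPC (log2 fold change -0.75, SE 0.54, unadjusted p 0.181, adjusted p 1, edgeR). ncor1.S was at 207 ± 71.7 CPM in IN and 132 ± 58.7 CPM in NPC (log2 fold change 0.64, SE 0.58, unadjusted p 0.277, adjusted p 1, edgeR). Their sum was 371 ± 132 CPM in IN and 408 ± 105 CPM in NPC, with a log2 fold change of -0.13 (SE 0.45, 95% interval -1.07 to 0.81, adjusted p 1, edgeR on summed copies), the narrowest interval of the 8 genes tested with copies summed.

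**Figure D3:**
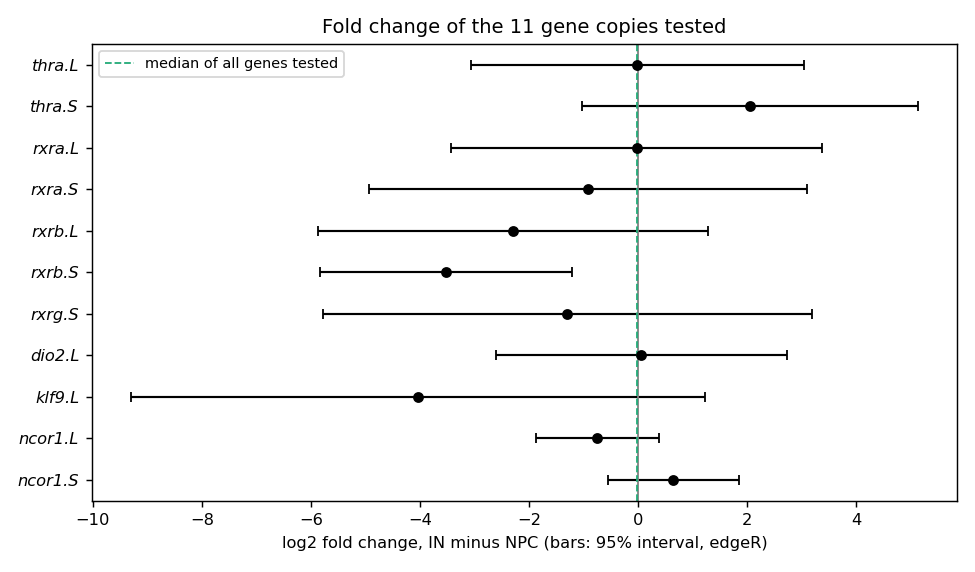
Log2 fold change, IN minus NPC, of the 11 copies tested by edgeR (points) with 95% intervals (bars), and the median of all genes tested (dashed line, -0.03). The interval of rxrb.S alone excludes 0 before adjustment, and the 2 ncor1 copies have the narrowest intervals.

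Opposite tendencies of the 2 ncor1 copies were visible as a shift of the share of L reads among reads of both copies. The L copy held 49.9%, 33.9% and 48.7% of ncor1 reads in IN libraries 1, 2 and 3, against 67.5%, 75.6% and 61.8% in NPC libraries 1, 2 and 3. All IN libraries were below all NPC libraries, at 44.2% ± 8.90 in IN and 68.3% ± 6.93 in NPC, a difference of -24.1 percentage points. Over coding reads the shares were 46.9%, 30.6% and 46.5% in IN, against 68.5%, 77.1% and 59.7% in NPC with STAR, and again did not overlap with TopHat2, a second aligner (41.3% ± 10.1 in IN and 69.6% ± 8.77 in NPC). Leaving out any 1 library kept the difference between -27.4 and -19.0 points.

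For rxrb the share of L reads was higher in IN, because the S copy differed more than the L copy. It was 26.2%, 53.7% and 39.1% in IN, against 9.57%, 14.8% and 25.6% in NPC, without overlap (39.7% ± 13.7 in IN and 16.7% ± 8.16 in NPC, 23.0 points). These reads lay mostly outside coding sequence. Of the rxrb coding reads the L copy held 14 of 64, 0 of 9 and 0 of 11 in IN. In NPC it held 28 of 116, 1 of 1 and 0 of 339. With so few in some libraries, no share was taken over coding reads, and the difference is not shown there. The shares of thra, 43.3%, 28.8% and 56.4% in IN, against 71.7%, 17.5% and 89.3% in NPC, overlapped. dio2 reads were mostly from the L copy, 100%, 100% and 80.8% in IN, against 99.3%, 50% and 100% in NPC. Of the 4 pairs with at least 10 reads in every library, 2 did not overlap, against 8.79% of 5788 such pairs in the whole table (4.42% with a lower L share in IN). A two-sided exact permutation test gave p 0.1 for ncor1 and rxrb, the smallest that 3 libraries against 3 allow, 0.5 for thra and 0.7 for dio2 (adjusted over the 4 pairs 0.2, 0.2, 0.667 and 0.7), so no pair could pass 0.05. The treatment of reads that match both copies was not stated in the sources used here, and a copy's reads are uncertain to that extent.

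**Figure D4:**
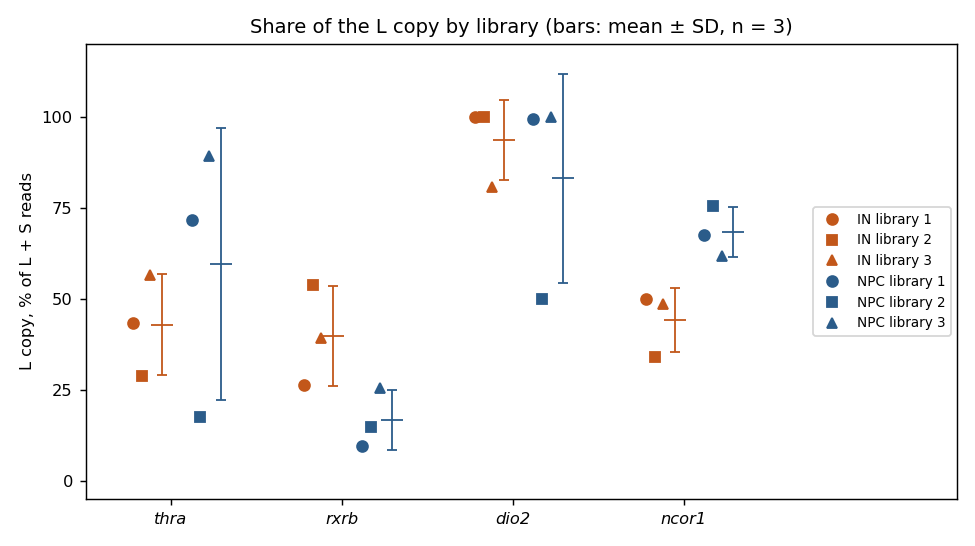
Share of the L copy among the reads of both copies, in percent, for the 4 genes with at least 10 reads in every library (IN left, orange; NPC right, blue; symbols are libraries, bars mean ± SD, n = 3). The ncor1 share lies between 33.9% and 49.9% in IN and between 61.8% and 75.6% in NPC, the rxrb share is higher in all IN libraries, and thra and dio2 overlap.

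Most reads of the tested receptor copies lay outside coding sequence. Coding sequence held 22.4% of rxra.L reads, 0.252% of rxra.S, 8.30% of rxrb.L, 24.2% of rxrb.S, 10.6% of rxrg.S, 8.62% of thra.L and 4.87% of thra.S over the 6 libraries. The median of these 7 tested receptor copies was 8.62%, against 52.9% over all genes tested, and all 7 lay below that median of all genes. Of the receptor copies without enough reads in enough libraries to be tested, thrb.L at 60.8% and thrb.S at 94.3% lay above it and rxrg.L at 0.110% below. By contrast 84.0% of ncor1.L, 89.5% of ncor1.S and 79.0% of dio2.L reads were coding. The remainder can lie in untranslated regions or in introns, since the mRNA table appears to count reads over whole annotated spans, although the counting command was not stated: among genes annotated with coding sequence only, the median coding share was 100% for the 400 genes with 1 coding segment and 73.6% for the 2632 with several. rxra.L spans 114667 bases, of which 7714 are exon, and thra.L spans 84248 bases, of which 2263 are exon. Untranslated and intronic reads of these copies cannot be told apart in these tables. By library, coding sequence held 45.9%, 54.0% and 60.9% of all reads in IN libraries 1, 2 and 3, and 45.1%, 55.1% and 61.0% in the NPC libraries of the same numbers, so the share went with the library number and not with the group.

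Levels of different genes were compared as coding CPM per kilobase of coding sequence, a scale chosen after the data were seen because it leaves out introns. On it ncor1.L was highest at 24.5 ± 10.7 (SD over 6 libraries), followed by dio2.L at 21.9 ± 10.4 and ncor1.S at 20.4 ± 10.1, which did not differ beyond their spread. Next came rxrb.S at 7.31 ± 12.3, rxra.L at 2.21 ± 4.62 and dio2.S at 1.75 ± 4.14, each carried by 1 library. thra.L followed at 1.11 ± 0.819, thra.S at 0.652 ± 1.00 and thrb.L at 0.638 ± 1.01, and the other copies lay from 0 to 0.540. None of the neighbours from rxrb.S down differed beyond their spread, and rxrb.S, from 0 to 31.8, overlapped the leading 3. In every library each of the 3 leading copies was at 5.06 or above, and thra.L at 2.29 or below. The order depended on the scale. On CPM of the mRNA table per kilobase of exon, which would also hold intron reads, dio2.L came first at 27.4 ± 9.26, ncor1.L at 23.0 ± 8.86 and ncor1.S at 22.6 ± 9.5 followed, and then rxrb.S at 9.64 ± 9.85, thra.S at 9.13 ± 10.3, thra.L at 7.16 ± 4.92 and rxrg.L at 7.07 ± 15.1. On the coding scale, by group, ncor1.L, dio2.L and ncor1.S were 17.5 ± 9.52, 19.4 ± 12.4 and 25.2 ± 10.4 in IN, and 31.6 ± 7.01, 24.4 ± 9.89 and 15.7 ± 8.98 in NPC.

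Uneven distribution over libraries was common to most copies. The library with the highest CPM held 48.7% of a copy's summed CPM at the median of the 11 tested copies, against 39.2% at the median of all genes tested, where equal libraries would give 16.7%. In 5 of the 11 (45.5%) a single library held over 50%, against 25.8% of all genes tested. It held 24.5% for ncor1.L, 25.9% for ncor1.S and 25.4% for dio2.L, and 62.8% for rxra.S. The top library was NPC library 1 for rxra.L, rxra.S, rxrg.S, thra.L and dio2.L, so no single library was high in all copies.

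The wider pathway was counted in the same fit as 8 lists with 150 annotated copies. Of 96 copies tested 0 passed edgeR's test in either direction, 0 had an unadjusted p under 0.05 (3.43% of all genes), DESeq2 called 0, and the fold changes were above 0 in 54 and below 0 in 42, with a median of 0.08 against -0.03 over all genes. The groups did not overlap in 0, 1, 1, 0, 0, 2, 2 and 1 tested copies of the 8 lists, in the order given below. Over all genes tested this held for 8.76%. No such share is available for the list sums given below. The members named below are those of lowest p and of highest CPM per kilobase of exon in each list.

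Hormone entry, binding and deiodination other than dio2 and dio3 had 11 of 17 copies tested, 8 with a fold change above 0. slc3a2.L, the heavy chain of amino acid transporters that also carry the hormone, had 1492, 1415 and 1652 reads in IN, against 1668, 1080 and 1113 in NPC, close in all libraries. slc16a10.L, the MCT10 transporter, had 152, 71 and 22 reads in IN, against 565, 63 and 47 in NPC (p 0.302, edgeR). slco4a1.L, an organic anion transporter, had 75, 26 and 58 reads in IN, against 35, 0 and 5 in NPC (p 0.385, edgeR). The carrier protein gene ttr had no read.

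Among hormones and receptors of the thyroid axis, 6 of 15 copies were tested and all 6 had a fold change above 0. The summed level of all copies was 135, 78.1 and 156 CPM in IN, against 54.9, 74.6 and 49.3 CPM in NPC, without overlap. trh.L, the thyrotropin-releasing hormone precursor, made up much of it with 258, 523 and 844 reads in IN, against 98, 415 and 284 in NPC, which overlapped (log2 fold change 0.75, SE 0.95, p 0.437, edgeR). Its receptor copies trhr.S and trhr.L had 137, 13 and 2 and 37, 67 and 0 reads in IN, against 19, 0 and 0 and 24, 1 and 0 reads in NPC (p 0.240 and 0.403, edgeR). The copies of tshb, the pituitary thyrotropin subunit, had reads in few libraries. tshb.L had 69 in IN library 3, of which 62 were coding. tshb.S had 9 in IN library 2 and 25 in NPC library 1, none of them coding.

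Partners of NCOR1 in corepressor complexes had all 11 copies tested, 3 with a fold change above 0 and 8 below (median -0.71). Their summed level was 422, 468 and 597 CPM in IN, against 554, 756 and 788 CPM in NPC, overlapping in IN library 3 and NPC library 1. sin3b.S, a scaffold of histone deacetylase complexes, had 224, 130 and 191 reads in IN, against 205, 753 and 307 in NPC (p 0.162, edgeR), and its copy sin3b.L 585, 528 and 805 in IN, against 436, 1758 and 619 in NPC (p 0.272, edgeR). sin3a.L, the leading copy per length, had 982, 1050 and 479 reads in IN, against 759, 1096 and 1548 in NPC. NPC library 2 was the highest for both sin3b copies.

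Nuclear receptor coactivators had 18 of 19 copies tested, 9 with a fold change above 0 and 9 below. Their summed level was 1424, 1240 and 1306 CPM in IN, against 1480, 1774 and 1446 CPM in NPC, without overlap. No tested copy of the list separated the groups. ncoa6.S had 80, 182 and 204 reads in IN, against 1049, 149 and 349 in NPC (log2 fold change -1.88, SE 1.05, p 0.0880, edgeR). crebbp.S, a histone acetyltransferase, had 956, 422 and 2557 reads in IN, against 2076, 3746 and 1322 in NPC (p 0.107, edgeR). carm1.S, an arginine methyltransferase, had 107, 665 and 605 in IN, against 96, 320 and 802 in NPC. All 3 of these copies overlapped between groups.

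Hormone response genes other than klf9 and thrb had 10 of 15 copies tested, 6 with a fold change above 0 and 4 below. thibz, a leucine zipper gene that the hormone strongly induces in tadpoles, had no read in any library. mmp14.L, a membrane-bound metalloproteinase, had 408, 489 and 2362 reads in IN, against 859, 191 and 411 in NPC (p 0.237, edgeR), and mmp14.S had 3, 12 and 33 in IN, against 57, 206 and 1 in NPC (p 0.214, edgeR). nr1d1.L, a heme-binding repressor that is also a clock gene, had 278, 31 and 16 reads in IN, against 544, 701 and 15 in NPC (p 0.124, edgeR). All 3 overlapped between groups.

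Other partners of the retinoid X receptors had 11 of 24 copies tested, 5 with a fold change above 0 and 6 below. nr4a2.L, an orphan receptor of neurons that can pair with RXR, had 205, 292 and 72 reads in IN, against 328, 717 and 749 in NPC, without overlap (log2 fold change -1.94, SE 0.94, unadjusted p 0.0535, adjusted p 1, edgeR). rarb.S, a retinoic acid receptor, had 283, 247 and 3 reads in IN, against 76, 4 and 2 in NPC (p 0.194, edgeR). nr4a1.L had 291, 414 and 182 in IN, against 2, 531 and 29 in NPC. In the genes of retinoic acid synthesis, binding and breakdown, 13 of 25 copies were tested, 9 above 0 and 4 below. cyp26b1.L, which degrades retinoic acid, had 262, 129 and 585 reads in IN, against 27, 58 and 55 in NPC, without overlap (log2 fold change 2.54, SE 1.38, p 0.0802, edgeR), and crabp2.L, a retinoic acid carrier, had 705, 1791 and 4210 in IN, against 1330, 6175 and 2343 in NPC (p 0.225, edgeR).

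The relatives of klf9 named here had reads in every library, which klf9 did not. They were picked among copies with enough reads to be tested, so this does not describe the other relatives. Of 24 Kruppel-like factor copies 16 were tested, 8 with a fold change above 0 and 8 below. klf7.L had 1164, 1000 and 248 reads in IN, against 335, 1081 and 123 in NPC, and klf13.L, the closest relative of klf9, had 831, 692 and 781 in IN, against 1019, 931 and 1518 in NPC, without overlap (log2 fold change -0.84, SE 0.63, p 0.195, edgeR). The coding reads of klf13.L, 64, 193 and 106 in IN, against 54, 136 and 196 in NPC, overlapped. klf8.L had 326, 161 and 746 reads in IN, against 407, 102 and 72 in NPC. None of these passed the test.

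The genes most like a member in their pattern were found as the smallest root mean square difference of centred log2 CPM over the 6 libraries, among 14832 genes with a symbol and a mean of at least 5 CPM. For thra.S, the thyroid hormone receptor copy of highest mean CPM, they were phc1.S (0.31), rgs7bp.L (0.39) and cops3.L (0.39), where the median gene stood at 1.95. phc1.S, a Polycomb subunit, had 862, 2194 and 661 reads in IN, against 430, 210 and 61 in NPC. For rxrb.S, both the RXR copy of highest mean CPM and the member of lowest p, they were arhgef1.S (0.49), gsg1l.S (0.50) and socs6.L (0.56), with a median of 2.56. arhgef1.S had 73, 8 and 1 reads in IN, against 208, 102 and 359 in NPC. With 6 points among so many genes such likeness is a description only.

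Markers of the tissue were present. Midbrain and tectum markers summed to 363 ± 219 CPM in IN and 432 ± 123 CPM in NPC, and 6 of their 8 tested copies had a fold change below 0. The copies of lowest p in that list were en2.L and otx2.S. en2.L had 121, 193 and 518 reads in IN, against 128, 1156 and 1394 in NPC (log2 fold change -1.98, p 0.0445, edgeR). otx2.S had 23, 261 and 32 reads in IN, against 180, 508 and 497 in NPC (log2 fold change -2.18, p 0.0913, edgeR). The 2 tested copies above 0 were otx2.L and pax2.S. otx2.L had 136, 2690 and 758 reads in IN, against 372, 697 and 288 in NPC (log2 fold change 1.16, p 0.192, edgeR). pax2.S had 345, 323 and 44 in IN, against 74, 21 and 28 in NPC (log2 fold change 2.345, p 0.146, edgeR). Its coding reads were 244, 1 and 0 in IN, against 0, 0 and 13 in NPC. The untested en1 copies had reads in IN only, 76, 25 and 7 for en1.L and 94, 0 and 224 for en1.S. Of these, 45, 0 and 0 were coding for en1.L and 0, 0 and 3 for en1.S. Progenitor and radial glia markers (7 of 9 symbols annotated) summed to 2328 ± 772 CPM in IN and 2137 ± 944 CPM in NPC, and immature neuron markers (7 of 8) to 5293 ± 797 CPM in IN and 6564 ± 1923 CPM in NPC, so the sum of neither list separated the groups. Fold changes were above 0 in 9 of 12 tested progenitor copies and in 7 of 14 tested neuron copies. Unlike most of its list, hes1.S, of progenitors, had a lower mean in IN, with 53, 77 and 9 reads, against 528, 1749 and 1 in NPC (p 0.00778, edgeR). Its groups overlapped, because NPC library 3 was the lowest of the 6. elavl4.S, of neurons, had 1642, 1535 and 1087 reads in IN, against 2527, 4106 and 1594 in NPC (p 0.0399, edgeR). Its copy elavl4.L had a log2 fold change of 0.12. neurod1.L, of neurons, was higher in IN without overlap, with 283, 199 and 158 reads, against 2, 111 and 0 in NPC (p 0.246, edgeR). gap43.S, the neuron copy of next lowest p after elavl4.S, had 1733, 4414 and 9531 reads in IN, against 5386, 6987 and 14482 in NPC. It overlapped (log2 fold change -1.03, p 0.0843, edgeR). sox2.S, the progenitor copy of next lowest p after hes1.S, had 80, 584 and 29 in IN, against 122, 10 and 40 in NPC. It overlapped too (log2 fold change 1.86, p 0.257, edgeR). Of all other marker copies tested, hbg2.L, of red blood cells, was lower and pde6h.L, of photoreceptors, was higher in IN at an unadjusted p under 0.05 (p 0.0421 and 0.00585, edgeR). hbg2.L had 0, 22 and 0 reads in IN, against 22, 631 and 0 in NPC, most of them in NPC library 2. pde6h.L had 29, 43 and 158 reads in IN, against 0, 0 and 0 in NPC, with 10 coding reads, all in IN library 1. The opposite sign was seen in 1 of 5 tested erythroid copies, hbd.L, and in 4 of 6 tested retina copies, among them pde6h.S. No marker copy passed after adjustment. Pituitary markers ranged from 27.3 to 118 CPM in IN and from 38.2 to 126 CPM in NPC. Oligodendrocyte markers ranged from 85.3 to 140 CPM in IN and from 134 to 172 CPM in NPC, and endothelial markers from 22.6 to 99.8 CPM in IN and from 47.6 to 175 CPM in NPC. Microglia and leukocyte markers ranged from 20.7 to 98.2 CPM in IN and from 8.75 to 23.8 CPM in NPC, and retina markers from 9.18 to 65.9 CPM in IN and from 51.3 to 61.6 CPM in NPC. Erythroid markers were low in both libraries numbered 3 (26.7 CPM in IN and 33.3 CPM in NPC) and between 437 and 935 CPM in the other 4, with hba1 at 0 in all 6. None of these marker sums was free of overlap between the groups, and their part in the results was not tested.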

How the data were processed

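RNA was measured in 6 libraries as single-end reads of 100 bases, per the labels' protocols. Read counts, unnormalized whole numbers, were deposited by the authors in 3 tables: STAR over mRNA, STAR over coding sequence and TopHat2 over coding sequence, per the sheet names. HTSeq, Trimmomatic, FastQC and DESeq2 are listed per the submitters' processing notes. Strand, counting mode, treatment of multi-mapped reads and versions were not stated in the sources used here. Columns D1 to D3 were read as NPC (dark) and L1 to L3 as IN (light). Gene names and 1-based positions came from the deposited annotation, which has no exon lines (genome build 9.1, per the file headers).

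All 45099 genes entered 1 table. The 19158 genes passing filterByExpr went, after TMM scaling, into edgeR 4.0.16 in R 4.3.3 (quasi-likelihood, robust, two-sided, Benjamini-Hochberg over all genes, threshold 0.05). The SE is the fold change divided by the root of the F statistic, and the biological coefficient of variation was 111%. CPM used the same scaling. Reads outside coding sequence are mRNA minus coding reads, set to 0 where this was negative (1649 genes, none a member). Shares of L reads were compared by exact permutation tests. Alternatives were other scalings, filters, DESeq2 1.42.0, limma-voom (limma 3.58.1), the coding tables, the replicate number as a block, summed copies and each library left out. The code was tested on simulated counts.

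All copies of the 9 genes are named, and from each pathway list, where none passed, the 2 copies of lowest p and that of highest CPM per kilobase of exon. For the midbrain, progenitor and neuron lists the 2 marker copies of lowest p are named. Also named are marker copies with an unadjusted p under 0.05, and some that went the other way from such copies. They were chosen after their values were seen. Members and lists were chosen with earlier results of these data known. The p-values reflect spread among these libraries alone, which may be technical, and counting floors cover counting error only. Promoter and protein sequences were not used here.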

Additional observations from a re-analysis of the deposited data

How the results depend on the processing

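Log2 fold changes here are IN minus NPC, and all alternatives were planned but the fit of reads outside coding sequence and the coding level per kilobase, chosen after seeing the data. The count of genes past the threshold, 0, became 16 without a filter on reads (4 higher and 12 lower in IN) and 88 with DESeq2, and ran from 0 to 2 with each library left out (1 without NPC replicate 1, 2 without NPC replicate 3). The count of member copies, 0, became 1 with DESeq2, rxrb.S. In these cases the cause was not tested. The count of pathway list members was 0 throughout. In the labels, samples with the same number share only that number: deviations from the group means correlated at 0.115, 0.0467 and 0.0813 in libraries numbered 1, 2 and 3, each library correlating best with its own number, a hint from the data and not the design. With the replicate block 0 genes and 0 member copies passed, and the log2 fold changes turned to 2.86 for rxra.L, 1.35 for rxra.S, 1.04 for rxrg.S and 0.74 for thra.L. With limma-voom they turned to 2.20, 1.01, 0.066 and 0.95. With STAR coding counts they turned to -0.37 for dio2.L and 0.75 for thra.L, with TopHat2 coding counts to -0.36 and 1.11, and over reads outside coding sequence to 0.039 for thra.L. With libraries left out they ran from -0.22 to 0.51 for dio2.L, from -0.59 to 4.23 for rxra.L, from -1.47 to 3.03 for rxra.S, from -1.87 to 1.85 for rxrg.S and from -0.57 to 1.14 for thra.L. The directions of klf9.L, ncor1.L, ncor1.S, rxrb.L, rxrb.S and thra.S held under all alternatives that gave a value. Neither coding table gave a value for thra.S or klf9.L, and STAR coding counts gave none for rxrb.L. The STAR coding reads of thra.S went the other way in total, 16 in IN and 31 in NPC, with all 31 in NPC library 1. With libraries left out, rxrb.S ran from -4.79 to -3.04, rxrb.L from -2.65 to -1.20 (the smaller without NPC replicate 3), thra.S from 1.07 (without IN replicate 2) to 3.19 (without NPC replicate 1), and klf9.L from -9.22 (without IN replicate 1, which leaves no read in IN, so that the value depends on the prior count) to -3.46. The dio2 share of L reads differed by -6.03 points without NPC replicate 2 and by 7.33 to 19.0 points with each other library left out. Summed copies give no value per copy, and shares of rxrb and thra could not be taken in the coding tables, where libraries held under 10 reads. Both thrb copies, both dio3 copies, klf9.S, dio2.S and rxrg.L did not have enough reads in enough libraries to be tested. The standard error of the log2 fold change had a median of 1.41 over genes.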
